A study of Mus musculus with 6 samples.

Results

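Cytosolic ribosomal protein genes encode the protein part of the ribosome, the machine that translates every cytosolic message. They were taken from the expression table of the limb ectoderm by symbol: Rpl or Rps with a number and at most 1 trailing a, x or l, together with Rpsa, Rplp0, Rplp1, Rplp2 and Fau, leaving out the Rps6k kinases and pseudogenes. The rule found 70 genes among the 49452 of the table. Of these, 67 passed the filter on low values, 36 of the large and 31 of the small subunit, out of 12133 genes tested in all.

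The libraries were made from the ectoderm, the epithelial cover of the limb bud, of mouse embryos at stage E10.5, counted in days after conception. Trypsin and forceps freed the ectoderm, and both forelimbs of 1 embryo gave 1 library, with 3 embryos in each group. The group here called Sp8 null is labelled Sp8 KO and came from intercrosses of Sp8+/- heterozygotes carrying the Sp8-Cre-ERT2 allele, so these embryos also carry the inserted recombinase. The wild-type embryos (WT) came from separate crosses of C57BL/6 mice, and the strain of all 6 embryos is given as C57BL6J. Sp8 encodes a zinc-finger transcription factor needed for the apical ectodermal ridge, the signalling rim of the limb bud. The labels name no treatment. Whether a group difference came from the loss of Sp8, from the inserted recombinase or from the separate crosses cannot be told apart.

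The values are FPKM, which relate the fragments of a gene to its transcript length and to the total mapped in the library, and no read counts were used here. Relative depth, from what 1 read was worth among low genes, spanned 0.843 to 1.03 times that of wild-type embryo 1, and 11835 to 12245 genes reached 1 FPKM per library. Sp8 itself measured 0.766, 0.460 and 1.14 FPKM in the null embryos and 8.35, 10.97 and 13.5 FPKM in the wild type (log2 change -2.73 ± 0.20 SE, limma adjusted p = 0.000361). All 12 surface ectoderm markers passed the filter, with a summed level of 876 to 1128 FPKM in the null and 1055 to 1163 FPKM in the wild-type libraries. Of those 12, the adhesion gene Epcam was called lower (log2 change -0.53, limma adjusted p = 0.0313) and the ectodermal factor Tfap2a higher (0.52, limma adjusted p = 0.0163) in the null embryos. The 9 tested limb mesenchyme markers of 11 summed with the others to 149 to 225 FPKM in the null and 142 to 183 FPKM in the wild-type libraries, and 1 of them, the dorsal factor Lmx1b, was called higher (log2 change 1.07, limma adjusted p = 0.0166). The 6 erythroid markers summed to 61.9 to 161 FPKM against 11.6 to 422 FPKM, with none called. The 7 endothelial markers, 1 of them tested, summed to 2.51 to 4.38 FPKM against 2.05 to 3.08 FPKM, with Emcn and Cdh5 at 0 in all wild-type libraries. The 7 macrophage markers, none tested, summed to 0.896 to 1.68 FPKM against 0 to 0.584 FPKM, all 7 at 0 in wild-type embryo 2. The part of any of these markers in the results that follow was not tested.

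Each ribosome holds one copy of nearly every one of these proteins, so their genes are expressed at a high and similar level in all growing cells. Their messages carry a terminal oligopyrimidine tract (TOP), a C followed by a run of pyrimidines at the very start of the transcript, through which the mTOR kinase and the RNA-binding protein Larp1 adjust their translation and stability. Transcription of the genes, of the ribosomal RNA and of the assembly factors is raised by the Myc family. In mouse embryos the loss of 1 copy of some of these genes gives patterned defects of the skeleton, limbs or pigment.

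The start sites were read from RefSeq (GRCm38.p6) for 51 of the 67 tested genes, which have 61 annotated starts. The stretches below run from 50 bases before to 20 bases after the start and were chosen to show a called gene of each subunit, the acidic stalk, a gene with a known skeletal mutant and the Rps27 pair. Only starts that hold a pyrimidine run are shown: the other RefSeq starts of Rpl35a and Rps27l, and that of Rplp0 in the stalk, hold none. The run was sought on both sides of the start. The run shown for Rps27l lies wholly before the start, so it is not part of a message from there. Capitals mark a run of C and T that begins with C within 10 bases of the start, and the motifs GGGCGG (the core bound by Sp and Klf zinc-finger factors) and CCGGAAG (bound by Ets factors) on either strand.
Rps2, chr17:24720013-24720082, plus strand: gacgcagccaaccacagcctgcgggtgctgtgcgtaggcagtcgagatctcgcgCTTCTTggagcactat
Rpl35a, chr16:33056432-33056501, plus strand: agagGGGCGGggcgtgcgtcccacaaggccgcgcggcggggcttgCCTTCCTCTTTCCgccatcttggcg
Rplp2, chr7:141447601-141447670, plus strand: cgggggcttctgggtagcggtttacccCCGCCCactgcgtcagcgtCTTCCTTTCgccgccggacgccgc
Rpl38, chr11:114668530-114668599, plus strand: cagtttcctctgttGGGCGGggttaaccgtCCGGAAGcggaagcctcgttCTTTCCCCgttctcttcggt
Rps27, chr3:90213629-90213698, minus strand: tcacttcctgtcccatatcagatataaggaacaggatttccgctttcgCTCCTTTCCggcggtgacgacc
Rps27l, chr9:66946036-66946105, plus strand: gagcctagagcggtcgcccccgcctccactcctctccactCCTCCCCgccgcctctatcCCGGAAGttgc

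A C followed by at least 5 more pyrimidines lay within 10 bases of the start in 28 of the 61 windows, or 45.9%, against 15.1% of the 32851 windows of all genes and 15.6% of the windows of all tested genes. In the 300-base windows, 250 bases before to 50 after the start, GGGCGG was present in 57.4% of the ribosomal protein windows, 35.7% of all windows and 64.5% of those of tested genes. CCGGAAG was present in 36.1%, 8.86% and 18.8% of the same 3 sets. The pyrimidine run was thus more frequent than in tested genes, while GGGCGG was not. A match only says that the letters are there, and a run counted wholly before the start is not part of a message from that start.

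In the Sp8 null ectoderm the mean of every tested ribosomal protein gene was below that of the wild type. The null mean stood at 74.4% to 96.9% of the wild-type mean, with a median of 85.7%. On the log2(FPKM + 1) scale the median log2 fold change was -0.22, with a range of -0.42 (Rps27l) to -0.05 (Rps27), against a median of -0.06 over all tested genes. A lower mean was also the more frequent direction among all genes, 61.3% of the 12133. FPKM is a share of a library and the ectoderm was taken in bulk, so fewer cells of a type and less RNA per cell cannot be told apart.

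Few single genes passed the test. With limma on log2(FPKM + 1) and Benjamini-Hochberg adjustment over all tested genes, 4 of the 67 had an adjusted p under 0.05, here named called, all 4 lower. That is 5.97% of the ribosomal protein genes, beside 6.83% of all tested genes called in either direction and 5.15% called lower, a share near the background. A further 16 had an adjusted p between 0.05 and 0.1. At an unadjusted p under 0.05, 48 were lower, or 71.6%, against 17.5% of all tested genes. In 53 of the 67, or 79.1%, all 3 null embryos lay below all 3 wild-type embryos, against 21.1% of all tested genes. All tested members were far above the filter in every library, the lowest single value being 60.3 FPKM of Rps27l in null embryo 2, so the filter did not choose among them.

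**Figure D1:**
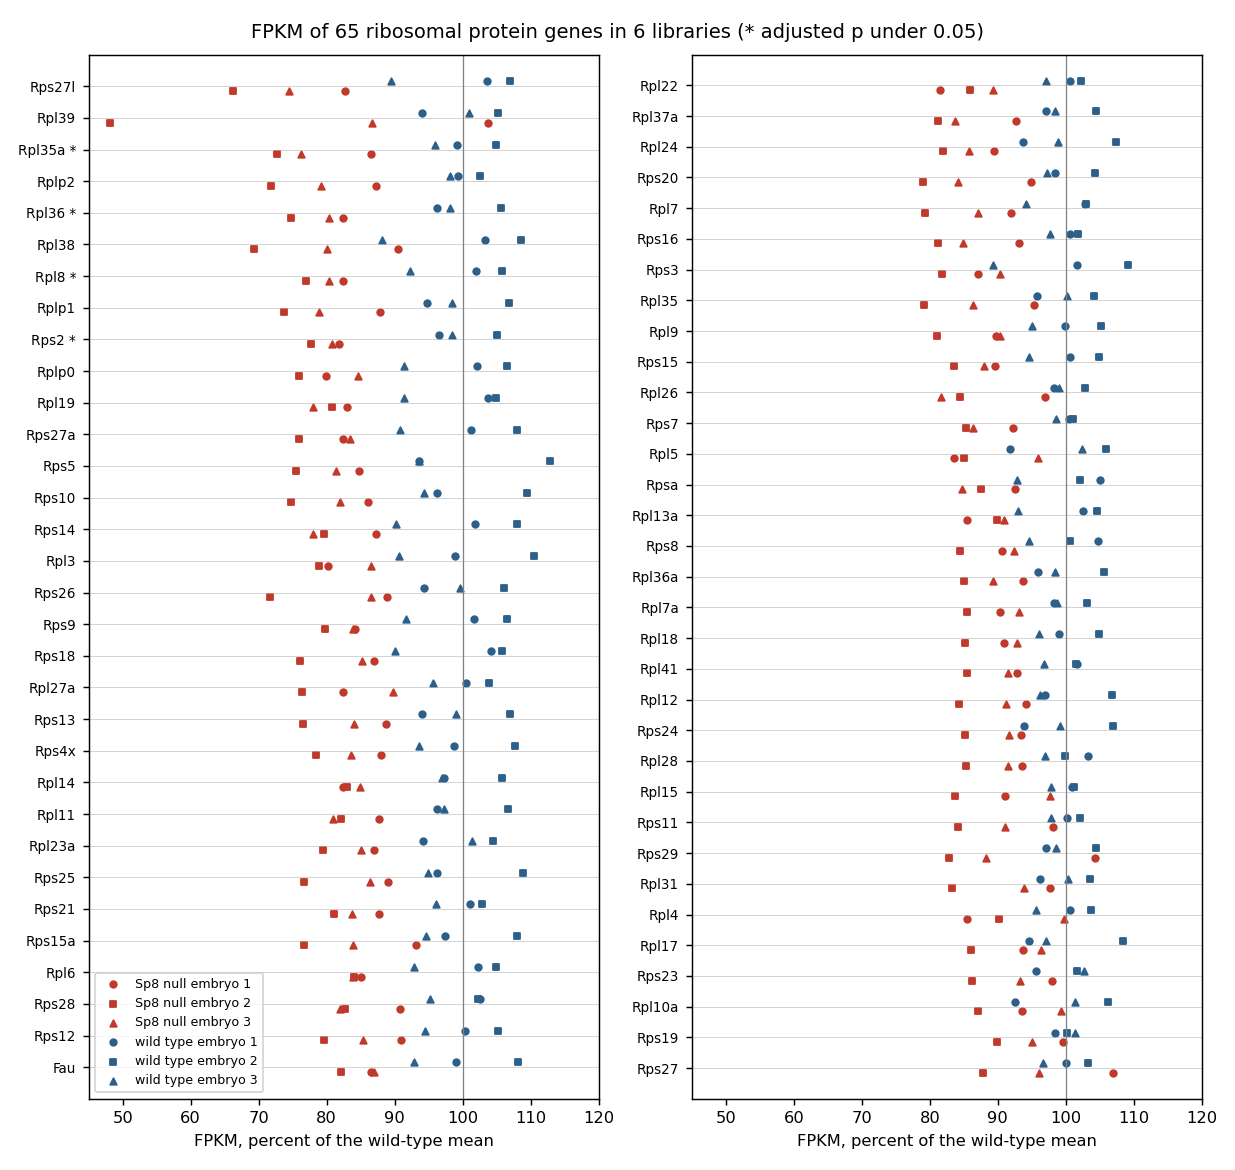
FPKM of 65 of the 67 tested ribosomal protein genes in each library, as a percent of the gene's wild-type mean (x axis), with 1 row per gene ordered by log2 fold change and 1 symbol per embryo. The null embryos (red) lie to the left of the wild-type embryos (blue) without overlap in 52 rows, and null embryo 2 (red squares) is the lowest point in 53.

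The 4 called genes were Rps2, Rpl36, Rpl8 and Rpl35a. Rps2 (chr17:24718116-24721929), a small-subunit protein at the entry of the messenger channel, measured 201, 191 and 198 FPKM in the null embryos and 237, 258 and 242 FPKM in the wild type. The groups were apart, with a log2 fold change of -0.32 (SE 0.063, limma adjusted p = 0.0298), the lowest adjusted p of the family. Rpl36 (chr17:56613416-56614243), of the large subunit, measured 234, 212 and 228 FPKM against 273, 300 and 278 FPKM (log2 change -0.34 ± 0.070 SE, limma adjusted p = 0.0339).

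Rpl8 (chr15:76904078-76906314), which lies near the peptidyl transferase centre, measured 236, 220 and 230 FPKM in the null and 292, 303 and 264 FPKM in the wild-type embryos. Its log2 fold change was -0.32 (SE 0.073, limma adjusted p = 0.0445). Rpl35a (chr16:33056453-33060189), whose human counterpart is mutated in some patients with Diamond-Blackfan anaemia, measured 205, 173 and 181 FPKM against 236, 249 and 228 FPKM (log2 change -0.35 ± 0.082 SE, limma adjusted p = 0.0470). In all 4 genes each null embryo was below each wild-type embryo. The calls did not outlast a change of scaling, with 0 of 67 called and 26 at an unadjusted p under 0.05 under median-of-ratios scaling in limma. Leaving out 1 embryo gave 0 members called without null embryo 2, null embryo 3, wild-type embryo 1 or wild-type embryo 2. It gave 2 called without null embryo 1 and 3 without wild-type embryo 3, with 23 to 48 members at an unadjusted p under 0.05. Of the 4 genes, only Rpl35a stayed called without null embryo 1 and only Rpl8 without wild-type embryo 3.

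The subunits are described apart, with no test between them. The median log2 fold change was -0.22 over 36 large-subunit genes, with 3 called, 24 at an unadjusted p under 0.05 and 28 without overlap between the groups. Over the 31 small-subunit genes it was -0.23, with 1 called, 24 at an unadjusted p under 0.05 and 25 without overlap. Of all tested genes 6.83% were called, 17.5% were lower at an unadjusted p under 0.05 and 21.1% had all null embryos below. Levels spanned a wide range: the wild-type mean was 79.0 FPKM for Rps7 and 104 FPKM for Rpl27a at the low end, and 1058 FPKM for Rpl41 near the high end. Rpl41, the shortest protein of the ribosome, measured 983, 904 and 968 FPKM in the null and 1076, 1075 and 1025 FPKM in the wild-type embryos, without overlap (log2 change -0.15, limma adjusted p = 0.230). At the low end Rps7 measured 72.8, 67.4 and 68.3 FPKM against 79.4, 79.8 and 77.8 FPKM (log2 change -0.18, limma adjusted p = 0.123).

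The acidic stalk of the large subunit, which recruits the elongation factors, consists of Rplp0, its base, and the paired proteins Rplp1 and Rplp2. Rplp0 measured 162, 154 and 172 FPKM in the null and 207, 216 and 185 FPKM in the wild-type embryos. Rplp1 measured 197, 165 and 177 FPKM against 212, 239 and 220 FPKM. Rplp2 measured 293, 242 and 266 FPKM against 334, 345 and 330 FPKM. The groups were apart for all 3, and the log2 fold changes were close to each other at -0.32, -0.32 and -0.34. None was called, with limma adjusted p of 0.0589, 0.0684 and 0.0542. Rplp0 was the single member called after quantile normalization (log2 change -0.18, limma adjusted p = 0.0424).

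Some ribosomal proteins are made as fusions with ubiquitin or a ubiquitin-like protein and released by cleavage. Rps27a, a fusion with ubiquitin, measured 164, 151 and 166 FPKM in the null and 201, 215 and 181 FPKM in the wild-type embryos, without overlap (log2 change -0.31 ± 0.082 SE, limma adjusted p = 0.0687). Fau, which encodes Rps30 behind a ubiquitin-like domain, measured 115, 109 and 116 FPKM against 132, 144 and 124 FPKM, also without overlap (log2 change -0.23, limma adjusted p = 0.117).

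For 9 ribosomal protein genes with mouse mutants that alter development (Rpl38, Rpl24, Rpl27a, Rps6, Rps19, Rps20, Rpl5, Rpl11 and Rpsa), of which Rps6 comes from a row with a joined symbol and is not among the 67 members, the median log2 fold change was -0.22. None was called in limma, 6 had an unadjusted p under 0.05, and 5 had no overlap between the groups. Of all tested genes 17.5% were lower at an unadjusted p under 0.05 and 21.1% had all null embryos below. Rpl38, the gene of the Tail-short mouse, whose loss alters the translation of Hox messages and the axial skeleton, measured 554, 424 and 489 FPKM in the null and 632, 664 and 540 FPKM in the wild-type embryos. The groups overlapped, null embryo 1 lying above wild-type embryo 3 (log2 change -0.33 ± 0.12 SE, limma adjusted p = 0.152). Rpl11, which with Rpl5 binds and inhibits the p53 ligase Mdm2, measured 267, 250 and 246 FPKM against 293, 324 and 296 FPKM, without overlap (log2 change -0.26, limma adjusted p = 0.0738). Rpl5 itself overlapped between the groups, at 367, 374 and 422 FPKM against 403, 465 and 450 FPKM (log2 change -0.18, limma adjusted p = 0.252). Rpl24, the Belly spot and tail gene, measured 221, 202 and 211 FPKM against 231, 265 and 244 FPKM (log2 change -0.22, limma adjusted p = 0.125). Rpsa, the laminin receptor precursor that sits at the messenger exit, measured 264, 250 and 242 FPKM against 300, 292 and 266 FPKM (log2 change -0.18, limma adjusted p = 0.189), without overlap in either gene.

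Among the members nearest to no difference were Rps27, Rps19, Rpl10a and Rps23, with log2 fold changes of -0.05, -0.08, -0.10 and -0.11 and overlapping groups. Rps19, the gene most often mutated in Diamond-Blackfan anaemia, measured 197, 178 and 188 FPKM in the null and 195, 198 and 200 FPKM in the wild-type embryos. The sign of all 4 turned to slightly higher after quantile normalization and when protein-coding genes were fitted alone, at most to 0.09 (Rps27).

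At the other end, Rps27l had the most negative log2 fold change, -0.42 (SE 0.10, limma adjusted p = 0.0546), with 75.2, 60.3 and 67.9 FPKM in the null embryos and 94.4, 97.4 and 81.5 FPKM in the wild type. Rpl39, a small protein at the mouth of the peptide exit tunnel encoded on the X chromosome, came second at -0.40, but with the widest error of the 67 members (SE 0.25, limma adjusted p = 0.389). It measured 362, 168 and 302 FPKM in the null and 328, 367 and 352 FPKM in the wild-type embryos, so its low mean rested on null embryo 2. Of the 3 X-linked members, Rpl39, Rps4x and Rpl36a, none was called.

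Several ribosomal proteins have a second gene that encodes a close relative or, for Rps4l, is annotated as a processed pseudogene. The ratio within such a pair does not depend on a scaling factor per library. Rps27l, the relative of Rps27 and known as a p53 target, stood at 8.55%, 8.35% and 8.60% of the level of Rps27 in the null embryos and at 11.5%, 11.5% and 10.2% in the wild type (8.50% ± 0.132 and 11.1% ± 0.704, SD, n = 3). The groups were apart, while Rps27 itself measured 880, 722 and 789 FPKM against 822, 850 and 795 FPKM and overlapped. With 3 embryos against 3 an exact permutation test cannot go below p = 0.1, so the ratio is given as a description. It was the only 1 of the 5 pairs with both genes tested whose ratio did not overlap between the groups.

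**Figure D2:**
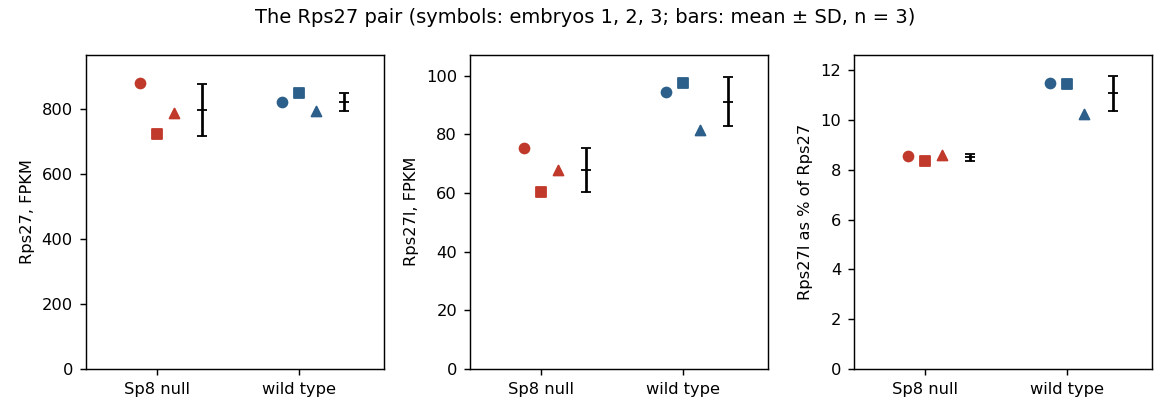
FPKM of Rps27 (left), FPKM of Rps27l (middle) and Rps27l as a percent of Rps27 (right) in each library, with the mean and SD of 3 embryos beside the points and every axis starting at 0. The Rps27l share is 8.35% to 8.60% in the null embryos and 10.2% to 11.5% in the wild type, whereas Rps27 overlaps.

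Rpl22l1, the relative of Rpl22, stood at 17.0% ± 1.82 of Rpl22 in the null and 17.1% ± 2.36 in the wild-type embryos (SD, n = 3). Rpl7l1 stood at 6.39% ± 0.699 of Rpl7 against 6.80% ± 0.278, and Rpl36al at 60.7% ± 3.09 of Rpl36a against 63.9% ± 3.07. Rps4l, annotated as a transcribed processed pseudogene, stood at 1.11% ± 0.192 of the X-linked Rps4x against 1.19% ± 0.105. All 4 of these ratios overlapped between the groups. The 3 relatives known from muscle or the testis were not expressed at a level that could be tested. Rpl10l was listed at 0 in all 6 libraries, Rpl39l at 0.13 FPKM in null embryo 2 and 0 elsewhere, and Rpl3l at 0.03 FPKM in wild-type embryo 2 and 0 elsewhere. They are the 3 members that did not pass the filter.

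Summed over the 70 genes, ribosomal protein messages reached 24347, 21736 and 23650 FPKM in the null embryos and 26422, 28224 and 25785 FPKM in the wild type. The groups were apart, the null mean being 86.7% of the wild-type mean (23244 ± 1352 against 26810 ± 1265, SD, n = 3). The sum over all protein-coding genes was lower in the null libraries too, at 257038, 254991 and 270327 FPKM against 285833, 292184 and 274362 FPKM, or 91.8%. As a share of the tested protein-coding FPKM, the ribosomal proteins made up 9.52%, 8.58% and 8.79% in the null and 9.29%, 9.70% and 9.44% in the wild-type embryos (8.96% ± 0.494 against 9.48% ± 0.206, SD, n = 3). That share overlapped, null embryo 1 lying above 2 of the wild-type embryos. Of the sum over all tested genes, the mitochondrial transfer RNA gene mt-Tl1 alone held 48.7% to 96.1% in each library, and as a share of that sum the members ranged from 0.234% to 2.58% between libraries.

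**Figure D3:**
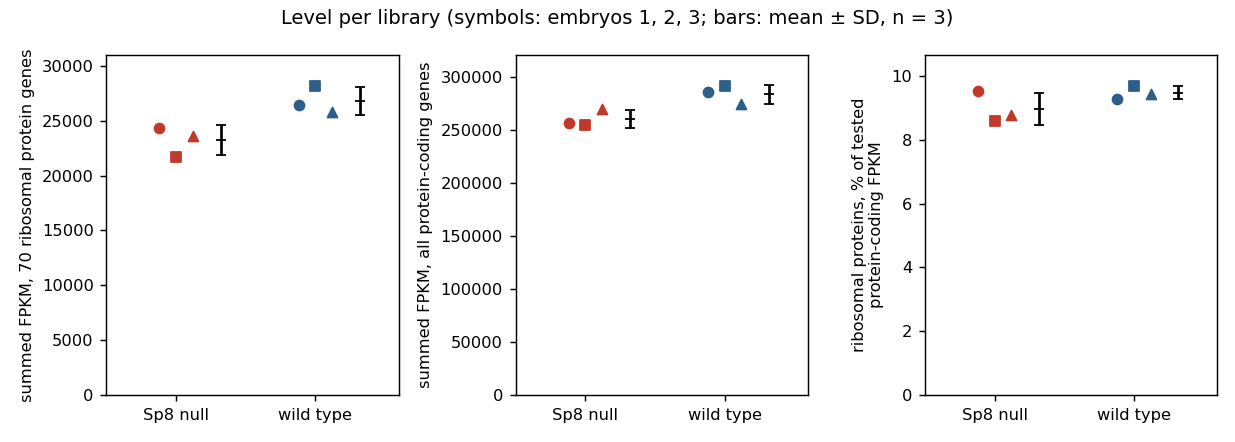
Summed FPKM of the 70 ribosomal protein genes (left), summed FPKM of all protein-coding genes (middle) and the ribosomal protein share of the tested protein-coding FPKM in percent (right), for each library and with mean and SD of 3 embryos. The first 2 quantities separate the groups, and the share, at 8.58% to 9.52% against 9.29% to 9.70%, does not.

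The size of the difference depended on the scaling between libraries. As deposited, the ribosomal protein median was -0.22 and the median of all genes -0.06, a distance of -0.16. With median-of-ratios scaling the medians were -0.18 and -0.02, with all 67 members below 0 and none called. With upper-quartile scaling they were -0.12 and 0.03 (64 of 67 below 0, none called), and with protein-coding genes fitted alone -0.10 and 0.04 (61 of 67, none called). Quantile normalization gave -0.06 and 0.01 (52 of 67 below 0, 1 called), and removing a trend on transcript length gave -0.16 and 0.01 (66 of 67, 1 called). Members without overlap between the groups numbered 53 as deposited, 26 with median-of-ratios scaling, 17 with upper-quartile scaling and 18 after scaling to the protein-coding sum, always with the null embryos below. Under the latter 3, 18.2%, 14.3% and 12.2% of all tested genes had all null libraries below all wild-type libraries, and 12.3%, 16.8% and 19.3% had them all above. Over all tested genes, 625 calls were lower and 204 higher as deposited, 507 and 363 with upper-quartile scaling, and 517 and 510 among protein-coding genes alone.

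**Figure D4:**
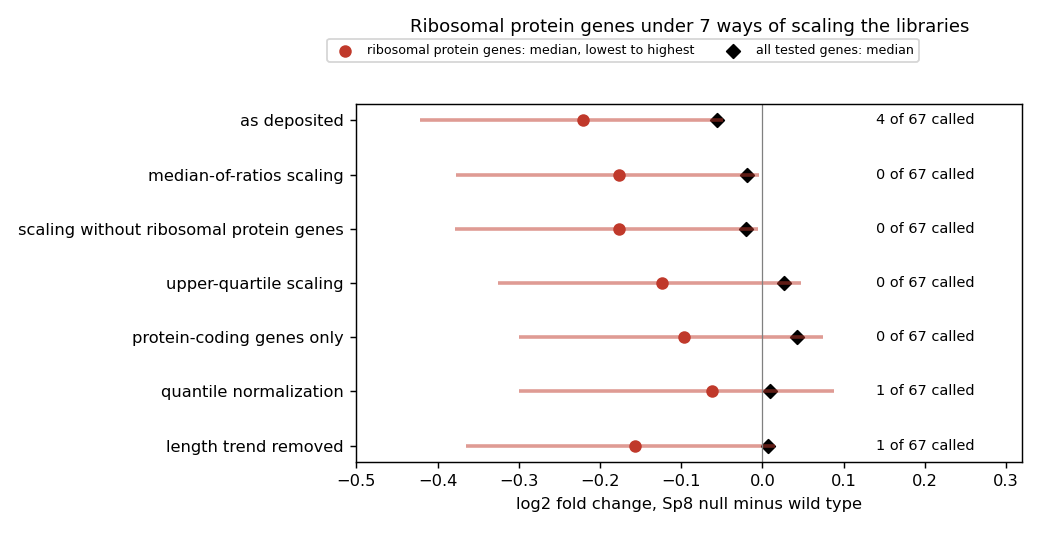
Median log2 fold change of the ribosomal protein genes (red points, line from the lowest to the highest member) and of all tested genes (black diamonds) under 7 ways of scaling, with the number of called members at the right. The red point lies to the left of the diamond in all 7, at a distance of -0.16 to -0.07, and the number called is 0, 1 or 4.

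Some libraries stood apart across the whole family. Null embryo 2 held the lowest of the 6 values for 55 of the 67 genes, and wild-type embryo 2 the highest for 59. Without null embryo 2 the median log2 fold change was -0.18, 66 of 67 members were below 0 and none was called. Without wild-type embryo 2 it was -0.19, with 67 of 67 below 0 and none called. Null embryo 2 also had the highest summed level of limb mesenchyme markers, 225 FPKM against 142 to 183 FPKM in the other 5 libraries. The mesenchyme factor Prrx1, chosen after its values were seen, stood at 53.3 FPKM there and at 3.92 to 16.5 FPKM in the others. The surface ectoderm sum was lowest in null embryo 2 too, at 876 FPKM against 1055 to 1163 FPKM in the other 5 libraries. Elsewhere the mesenchyme and ribosomal protein sums did not keep 1 direction. Null embryo 1 exceeded null embryo 3 in both (164 against 149 and 24347 against 23650 FPKM). Wild-type embryo 2 had the lowest mesenchyme sum, 142 FPKM, and the highest ribosomal protein sum, 28224 FPKM. The part of these markers in the low ribosomal protein values of null embryo 2 was not tested.

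Other abundant genes mostly had a lower mean in the null embryos too. The ribosomal proteins are among the most abundant messages: 65 of the 67 had a wild-type mean of 100 FPKM or more, among 476 such genes in the whole table. In a comparison set chosen after the data were seen, the 485 other protein-coding genes at least as abundant as the lowest member had a median log2 fold change of -0.15, 83.1% of them below 0 and 12.8% called. Of 30 short messages of other function, such as small subunits of the respiratory chain, 28 were below 0, none was called, and the median was -0.18. With protein-coding genes alone 20 of the 30 were below 0, with a median of -0.06 and 2 called. Quantile normalization gave 19 of 30, with a median of -0.04 and 2 called. Under no alternative was more than 1 of the 30 called lower, so these calls were not all lower. The smallest p as deposited among the 30 was that of Uqcrq, a subunit of respiratory complex III (log2 change -0.36, limma adjusted p = 0.0605). Over the 67 members, which share the 6 libraries, log2 fold change had a Spearman correlation of 0.22 with transcript length and 0.30 with wild-type level.

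The authors' deposited table gives its own group means, signed fold changes and p-values. In the authors' deposited table all 67 members had a negative fold change, from -1.30 (Rps27l) to -1.01 (Rps27), with a median of -1.14. There 47 of the 67, or 70.1%, were lower at a p under 0.05, against 20.0% of all tested genes. The authors' deposited table gives p = 0.000163 for Rps2, p = 4.3e-05 for Rpl36, p = 1e-05 for Rpl8 and p = 0.000293 for Rpl35a, with the test not given in the sources used here. For 8 members, Rpl35a among them, the deposited means were under 20% of what FPKM and the length of the longest annotated transcript gave elsewhere. That length was 2858 to 5179 bases for Rpl35a, Rpl18, Rps24 and Rps15a, and 588 to 1443 bases for the others. The ratio depends on the length used, and whether the longest transcript was the one expressed was not tested. Without these 8 the count was 3 called of 59.

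Further cytosolic ribosomal proteins stood outside the symbol rule. In 10 rows the symbol of a ribosomal protein gene was joined to that of another gene. Each row carries the identifier of the ribosomal protein gene, and whether it also holds reads of the other gene was not tested. All 10 had a lower null mean, their median log2 fold change was -0.24, and 2 were called. These were Rpl30, at 424, 407 and 429 FPKM in the null and 549, 586 and 508 FPKM in the wild-type embryos (log2 change -0.38 ± 0.074 SE, limma adjusted p = 0.0269), and Rpl23, at 395, 369 and 377 FPKM against 485, 486 and 451 FPKM (log2 change -0.32 ± 0.066 SE, limma adjusted p = 0.0343). The alternatives here were median-of-ratios, upper-quartile and quantile scaling, protein-coding genes alone and the length trend removed. Rpl30 stayed called in each (limma adjusted p of 0.0148 to 0.0368), and Rpl23 in none (limma adjusted p of 0.0533 to 0.0755). With the 10 added, 6 of 77 were called as deposited, still near the background. Of 6 more genes with other symbols, all 6 had a lower mean, none was called, and the smallest p was that of Rack1, the signalling scaffold on the small subunit, at 303, 279 and 299 FPKM against 372, 375 and 337 FPKM (log2 change -0.30, limma adjusted p = 0.0528). Ribosomal protein genes have many processed pseudogenes that can take up their reads. The 273 rows of pseudogenes named after them summed to 290 to 310 FPKM in the null and 323 to 347 FPKM in the wild-type libraries.

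Larger differences were measured among the genes that build ribosomes. Of 38 tested ribosome biogenesis factors all 38 had a lower mean in the null embryos, 14 were called, all lower, and the median log2 fold change was -0.39. That is 36.8% called, beside 6.83% of all tested genes. Nop2, a methyltransferase of the large ribosomal RNA, measured 8.96, 9.48 and 11.1 FPKM in the null and 14.9, 15.4 and 15.9 FPKM in the wild-type embryos (log2 change -0.60 ± 0.093 SE, limma adjusted p = 0.0117). Rrs1, needed for assembly of the large subunit, measured 9.63, 8.93 and 10.3 FPKM against 14.1, 14.05 and 13.6 FPKM (log2 change -0.49 ± 0.078 SE, limma adjusted p = 0.0127). Wdr43, a component of the small-subunit processome, measured 18.9, 19.8 and 22.3 FPKM against 29.9, 31.9 and 27.5 FPKM, and Gar1, of the H/ACA small nucleolar particles that guide pseudouridylation, measured 103, 93.9 and 122 FPKM against 170, 170 and 149 FPKM. Their log2 fold changes were -0.53 and -0.62 (limma adjusted p of 0.0161 and 0.0167). In all 4 genes the groups were apart. The number called was 13 to 17 under the scaling alternatives other than quantile normalization, which gave 12, and 2 with no filter on low values. When 1 embryo was left out it was 3 without null embryo 1, 3 without null embryo 2, 16 without null embryo 3, 2 without wild-type embryo 1, 1 without wild-type embryo 2 and 6 without wild-type embryo 3. Whether this list differed from the ribosomal protein genes was not tested.

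**Figure D5:**
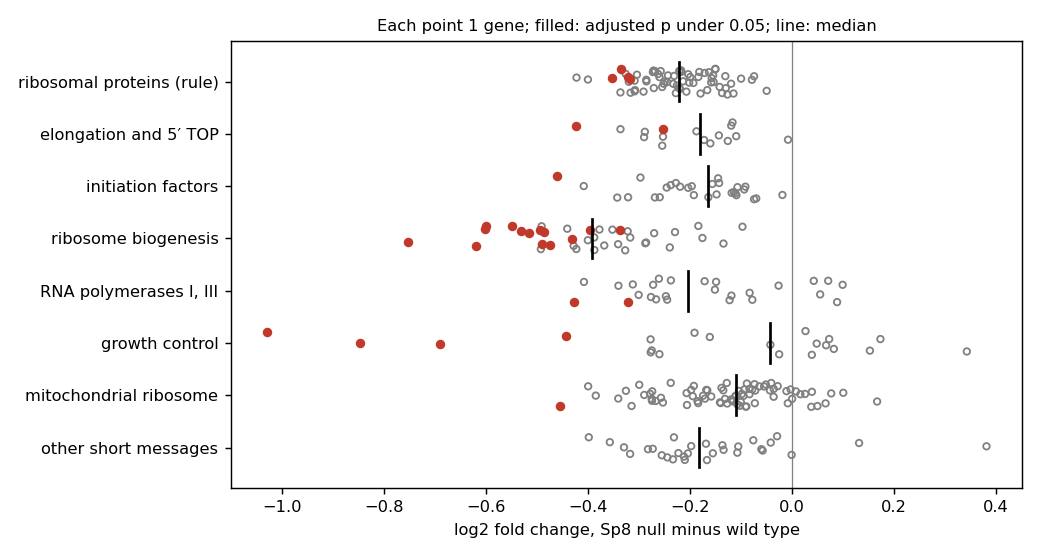
Log2 fold change, null minus wild type, of each tested gene (points) in the ribosomal protein family and 7 related lists, with called genes filled and the list median as a vertical line. All ribosomal protein points lie between -0.42 and -0.05, the ribosome biogenesis points reach further left with a median of -0.39, and the growth control list spreads to both sides of 0.

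Among 21 regulators of ribosome production, 12 had a lower mean, as did 61.3% of all tested genes. Of the 21, 4 were called, all lower, or 19.0%, beside 6.83% of all tested genes. The median of the list was -0.04, which was 0.06 with protein-coding genes alone. Mycn, a Myc family factor that raises transcription of ribosome genes, fell from 23.9, 24.2 and 18.7 FPKM in the wild type to 9.11, 9.83 and 12.2 FPKM in the null embryos (log2 change -1.03 ± 0.14 SE, limma adjusted p = 0.00625). Myc fell from 4.11, 4.19 and 4.52 FPKM to 1.44, 2.85 and 1.69 FPKM (log2 change -0.85 ± 0.17 SE, limma adjusted p = 0.0314). Larp1, the protein that binds TOP messages, fell from 24.1, 23.8 and 21.9 FPKM to 16.5, 16.4 and 17.6 FPKM (log2 change -0.44 ± 0.072 SE, limma adjusted p = 0.0145). Eif4ebp1, the mTOR-regulated repressor of the cap-binding factor, fell from 9.02, 8.86 and 10.48 FPKM to 4.93, 5.37 and 6.14 FPKM (log2 change -0.69 ± 0.11 SE, limma adjusted p = 0.0113). The groups were apart in all 4, and 2 to 4 genes of the list were called over the alternatives.

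The other lists of translation genes had medians of -0.20 to -0.11. Called were 12.5% of the elongation genes, 3.45% of the initiation factors, 7.69% of the polymerase genes and 1.28% of the mitochondrial genes. Of all tested genes 6.83% were called and 61.3% had a lower mean. Of 16 elongation factors and other messages of the TOP class all 16 had a lower mean and 2 were called, Naca (log2 change -0.25, limma adjusted p = 0.0441), a chaperone of nascent chains, and Eef1d (-0.42, limma adjusted p = 0.0448), of the exchange complex of elongation factor 1, with a median of -0.18. Of 29 initiation factors all 29 had a lower mean and 1 was called, Eif6, which keeps free large subunits apart from small ones (log2 change -0.46 ± 0.079 SE, limma adjusted p = 0.0166), with a median of -0.16. Of 26 genes of RNA polymerases I and III and their factors, 21 had a lower mean and 2 were called lower, Polr2h (-0.43, limma adjusted p = 0.0403) and Polr1d (-0.32, limma adjusted p = 0.0458), both shared subunits of more than 1 polymerase. Of 78 mitochondrial ribosomal protein genes, which serve the separate ribosome of that organelle, 67 had a lower mean and 1 was called, Mrps18b (-0.45, limma adjusted p = 0.0224), with a median of -0.11. With protein-coding genes fitted alone these lists moved towards 0: 12 of the 16 elongation genes were below 0 with a median of -0.06, 19 of the 29 initiation factors with -0.04, 17 of the 26 polymerase genes with -0.09 and 37 of the 78 mitochondrial genes with 0.00, each list with 1 called.

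Of 13 tested p53 targets, a list included because an imbalance of ribosomal proteins is known to activate p53, 10 had a lower mean and 2 were called, in opposite directions. Those 2 are 15.4% of the list, beside 6.83% of all tested genes called. Cdkn1a, the cell cycle inhibitor, fell from 53.4, 68.6 and 76.0 FPKM to 40.1, 33.7 and 44.1 FPKM (log2 change -0.73 ± 0.15 SE, limma adjusted p = 0.0313). Trp53inp1, a pro-apoptotic factor, rose from 12.05, 10.7 and 10.1 FPKM to 17.3, 17.4 and 16.5 FPKM (log2 change 0.60 ± 0.084 SE, limma adjusted p = 0.00766). Mdm2, the ligase of p53 and itself a target, measured 23.9, 28.2 and 27.8 FPKM in the null and 26.3, 26.3 and 24.7 FPKM in the wild-type embryos, and overlapped (log2 change 0.04, limma adjusted p = 0.795); it is named after its values were seen.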

How the data were processed

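RNA-seq libraries (TruSeq v2 kit, per the labels' protocols) of 6 single embryos were compared, 3 Sp8 null and 3 wild type. The deposited values are FPKM per gene from the authors, whose processing notes name TopHat2, Cufflinks, SAMtools, FastQC and DESeq2 and the GRCm38 genome. The table's annotation is Ensembl build 87, per the file headers. The same table holds the authors' normalized group means (a signal that is never negative), a signed fold change used as a score, and a p-value, whose test and normalization are not given in the sources used here. Whether counting used strand is not given either.

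Genes reaching 1 FPKM in 3 or more libraries were fitted with limma 3.58.1 in R 4.3.3 on log2(FPKM + 1) with a mean-variance trend and genotype as the only term, two-sided, over the whole table. The pseudocount of 1 understates changes of low genes. FPKM hold no counts, so depth is known only as a ratio between libraries. Gene types came from GENCODE release 21 and start sites from RefSeq.

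Members and gene lists were chosen with earlier results of these data known. Named genes were Sp8, the called members, the 5 members at each end by log2 fold change, the 3 most and least abundant, members under the filter, fixed paralogue pairs, mutant, stalk and ubiquitin-fusion genes, and up to 4 called genes and the smallest p of each list. Some genes that this rule covers are not reported here by name. Alternatives were 3 scalings between libraries, 2 pseudocounts, no filter, protein-coding genes alone, scaling without the members, a length trend, the leading number of the sample names (4 or 5, whose meaning the labels do not give) as a covariate, a replicate block and each library left out. Adding joined symbols and leaving out members with deposited means low for their FPKM and longest transcript were chosen after the data were seen.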

Additional observations from a re-analysis of the deposited data

How the results depend on the processing

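The median log2 fold change of the ribosomal protein genes (-0.22) kept its sign in every alternative, at -0.12 with upper-quartile scaling, -0.062 with quantile normalization, -0.10 with protein-coding genes alone and -0.16 with the length trend removed. It ran from -0.27 to -0.18 when 1 library was left out. Its distance to the median of all genes (-0.16) was -0.072 after quantile normalization and -0.24 to -0.12 with 1 library left out. The 4 called genes became 0 with median-of-ratios or upper-quartile scaling, with scaling without the members, with protein-coding genes alone, with no filter and with the sample-name number as a covariate. The number of members called was 1 with quantile normalization (Rplp0, not among the 4) and 1 with the length trend removed (Rpl36). It was 0 to 3 with 1 library left out, not all of them among the 4. The 48 genes at an unadjusted p under 0.05 became 26 with median-of-ratios scaling, 20 with upper-quartile scaling, 18 with quantile normalization, 16 with protein-coding genes alone, 26 with scaling without the members and 27 with the length trend removed, and 23 to 48 with 1 library left out. The 53 without overlap became 26, 17 and 18 under median-of-ratios, upper-quartile and protein-coding sum scaling.

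Over all genes the 829 calls became 342 with no filter, 545 with that covariate and 316 to 642 with 1 library left out. The 14 biogenesis calls became 2 with no filter, 8 with that covariate and 1 to 16 with 1 library left out. Over all alternatives the calls ranged from 0 to 2 for elongation, polymerase, short and mitochondrial messages, 0 to 3 for initiation factors, 2 to 4 for growth control and 1 to 3 for p53 targets. The null share of summed FPKM, 94.6% of the wild type, was 125% over all tested genes and 91.6% to 96.6% with 1 library left out. Of the sum over all tested genes, mt-Tl1 alone held 48.7% to 96.1% per library. The share of that sum overlapped between the groups (1.15% ± 1.25 in the null against 0.917% ± 1.05 in the wild type, SD, n = 3). The Rps27l ratio, 76.8% of the wild type, ran from 74.1% to 78.3% with 1 library left out. The cause of these shifts was not tested.

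Embryo numbers did not pair the samples: deviations of same-numbered embryos correlated at -0.16, -0.14 and -0.07. With the replicate block, 328 genes were called in all, 0 members, 22 at an unadjusted p under 0.05, and 1 biogenesis factor.

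Single genes gave 917 values over 54 results, of which 746 kept direction and side of the threshold, 151 lost and 3 gained the call, and 17 turned sign. With quantile normalization the log2 fold change became 0.032 for Rps23, 0.033 for Rpl10a, 0.080 for Rps19, 0.088 for Rps27, 0.026 for Rpsa, 0.14 for Rpl10 and 0.033 for Rpl36a. With protein-coding genes alone it became 0.0092 for Rps23, 0.024 for Rpl10a, 0.045 for Rps19, 0.074 for Rps27 and 0.051 for Rpl10. With upper-quartile scaling it became 0.019 for Rps19, 0.048 for Rps27 and 0.024 for Rpl10. For Rps27 it was 0.015 with the length trend removed and 0.020 without null embryo 2. A difference of the size of the ribosomal protein median passed the test in few single members, 5.97% as deposited. Of the 485 other abundant protein-coding genes, with a median of -0.15, 12.8% were called. The part of the number of libraries and of the lack of counts in this was not tested.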
